A study of Mus musculus with 24 samples.

Results

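Gene expression was compared between BMDMs (bone marrow-derived macrophages) that received conditioned medium (CM) from KEAP1 KO LL2 cells and BMDMs that received CM from WT LL2 cells, both in the presence of CDDO-Me. These groups hold 3 libraries each, 6 of the 24 libraries in the series, and were chosen by their medium and treatment labels alone. The whole series crosses 4 kinds of medium (control media, and the CM of LL2 cells that were WT, KEAP1 KO or NRF2 KO) with vehicle or CDDO-Me. All 6 libraries came from C57BL/6 bone marrow cultured with M-CSF, then held for 24 h in a mix of 75% CM and fresh medium with 100 nM CDDO-Me (bardoxolone methyl, a synthetic triterpenoid). LL2 is a mouse Lewis lung carcinoma line, and its Keap1 gene was edited by CRISPR in the cancer cells, not in the macrophages, so the macrophages of both groups were unedited and differed in the medium they received. The library names carry a single code for the KEAP1 KO cells, so CM from other KEAP1 KO cells is not represented here. The 3 libraries of a group carry replicate numbers shared with the other group, and the labels do not say whether a number stands for an animal or a day, so the p-values measure the spread between these samples.

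KEAP1 is the substrate adaptor of an E3 ubiquitin ligase that marks the transcription factor NRF2 for degradation. Electrophiles such as CDDO-Me modify cysteines of KEAP1, NRF2 then accumulates, and genes for glutathione synthesis, thioredoxin recycling and quinone detoxification are transcribed from antioxidant response elements. In macrophages, NRF2 activation is also known for damping inflammatory cytokine genes.

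The values are TPM, transcript abundances corrected for gene length and given as a share of each library. The depth of each single library is therefore unknown. Genes needed more than 1 TPM in 3 or more libraries, and the 13661 that met this were compared with limma on log2(scaled TPM + 1), in 1 fit of 24 libraries with the replicate number as a block and with Benjamini-Hochberg adjustment across every gene tested. Log2 fold changes are KEAP1 KO CM over WT CM and carry the standard error (SE), with n = 3 libraries in each group. The replicate 3 libraries of NRF2 KO CM, with vehicle and with CDDO-Me, stood apart, with 15702 and 16299 genes above 0 against 17817 to 18993 in the other libraries. They are in neither group compared but enter the shared estimate of the spread, so results are given with and without these 2 libraries. In the 6 libraries the defining macrophage markers were abundant, with Adgre1, which encodes F4/80, at 606, 539.8 and 566 TPM with KEAP1 KO CM and 598, 533 and 529 TPM with WT CM. The summed level of 17 macrophage markers was 28198 to 29896 TPM with KEAP1 KO CM and 25713 to 29806 TPM with WT CM. Keap1 itself, edited only in the cancer cells, was at 64.1, 62.7 and 60.4 TPM with KEAP1 KO CM and 62.2, 61.7 and 61 TPM with WT CM, so these ranges overlapped.

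With CDDO-Me, 26 genes rose and 2 fell with KEAP1 KO CM relative to WT CM. Together these 28 genes are 0.205% of the genes tested, 0.19% higher and 0.0146% lower. The 26 higher genes spanned log2 fold changes from 0.36 to 2.41. All 28 moved in the same direction in each of the 3 pairs, and in 25 the groups did not overlap. Among all genes, 6.28% were higher and 4.85% lower without overlap. Before adjustment, 962 genes had a p under 0.05 (7.04%), 650 higher (4.76%) and 312 lower (2.28%). Without the 2 NRF2 KO CM libraries that stood apart, 460 of 13562 genes passed (3.39%), 270 higher (1.99%) and 190 lower (1.4%), and all 28 were among them. The count moved with single libraries of the compared groups, to 6 without KEAP1 KO CM replicate 1, 88 without KEAP1 KO CM replicate 3, and 11, 9 and 18 without WT CM replicates 1, 2 and 3.

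**Figure D1:**
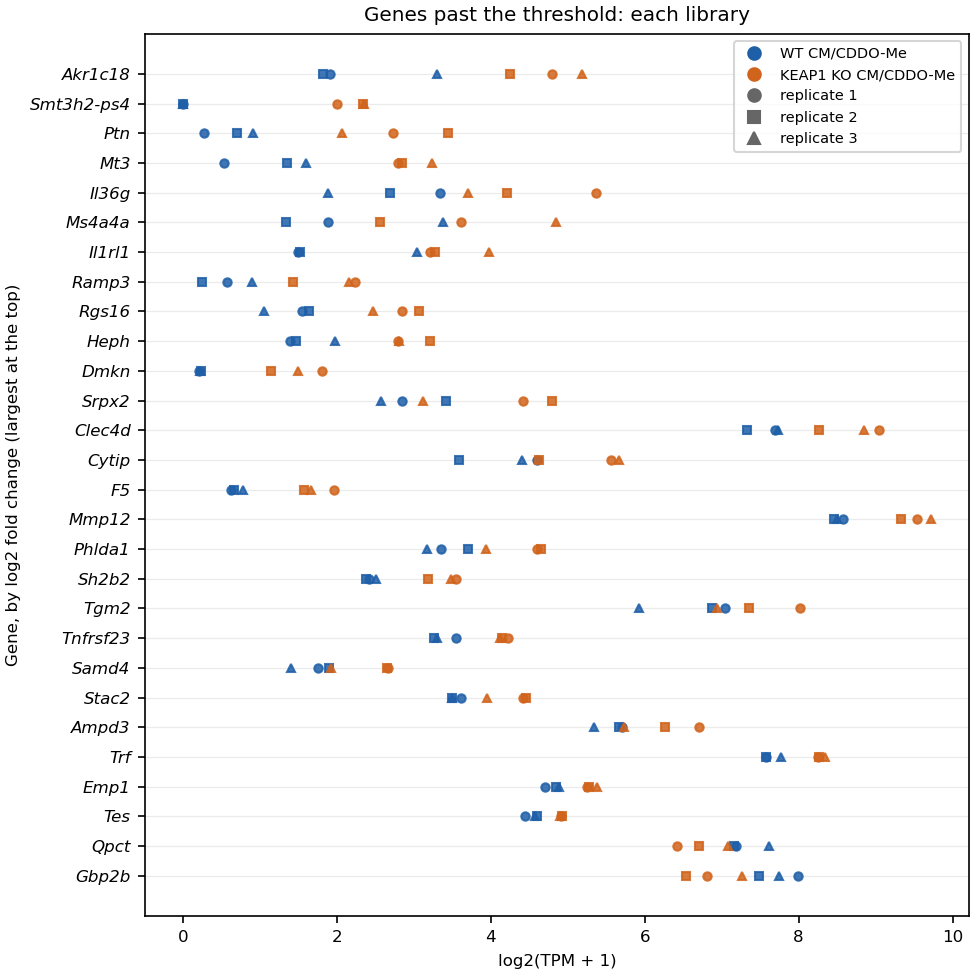
Level of each of the 28 genes past the threshold in the 6 libraries, as log2(TPM + 1) on the x axis, with genes on the y axis in order of log2 fold change. Color gives the medium and symbol the replicate number; for 25 genes every KEAP1 KO CM/CDDO-Me library lies on one side of every WT CM/CDDO-Me library.

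Of the 28 genes, the largest rise was that of Akr1c18 (chr13:4182614-4200672), which encodes a hydroxysteroid dehydrogenase that inactivates progesterone. Its level was 26.8, 18 and 35.5 TPM in KEAP1 KO CM/CDDO-Me replicates 1, 2 and 3 and 2.77, 2.53 and 8.90 TPM in the WT CM/CDDO-Me replicates in the same order (log2 fold change 2.41 ± 0.26, adjusted p = 0.000844). Each KEAP1 KO CM library was above every WT CM library. Akr1c18 lies in a cluster of related aldo-keto reductase genes, and reads could be shared among them. Mt3, a metallothionein that binds zinc and copper, was at 5.92, 6.20 and 8.45 TPM with KEAP1 KO CM and at 0.452, 1.55 and 2.04 TPM with WT CM (log2 fold change 1.83 ± 0.28, adjusted p = 0.0114). Heph (chrX:95498965-95621010), a copper-dependent ferroxidase involved in iron export, was at 5.95, 8.29 and 5.99 TPM against 1.62, 1.76 and 2.93 TPM (log2 fold change 1.34 ± 0.17, adjusted p = 0.00165). Trf, the iron carrier transferrin, was at 304, 307 and 323 TPM against 189, 190.1 and 218 TPM (log2 fold change 0.63 ± 0.12, adjusted p = 0.0319). Mt3, Heph and Trf are not in the list of metallothioneins and metal handling genes, of which 0 of 15 tested passed in limma (median 0.044, with 3 higher and 0 lower at an unadjusted p under 0.05). In these 3 genes the groups did not overlap, and Trf varied least among the libraries of a group.

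Several of the higher genes encode secreted or matrix-acting proteins. Mmp12 (chr9:7344381-7369499), the macrophage elastase, was the most abundant of the 28 in KEAP1 KO CM/CDDO-Me BMDMs, at 743, 640.4 and 844 TPM, against 379, 350.4 and 361 TPM with WT CM (log2 fold change 1.01 ± 0.19, adjusted p = 0.0435). The lowest KEAP1 KO CM value was well above the highest WT CM value. Ptn, the heparin-binding growth factor pleiotrophin, was at 5.64, 9.87 and 3.19 TPM against 0.214, 0.634 and 0.879 TPM (log2 fold change 2.16 ± 0.31, adjusted p = 0.00522). F5, coagulation factor V, was at 2.89, 1.97 and 2.19 TPM against 0.543, 0.583 and 0.728 TPM (log2 fold change 1.07 ± 0.13, adjusted p = 0.00165), a low level in both groups with a narrow spread. Srpx2, a secreted sushi-repeat protein, was at 20.4, 26.8 and 7.69 TPM against 6.20, 9.69 and 4.93 TPM (log2 fold change 1.16 ± 0.16, adjusted p = 0.00337), and Tgm2, a protein-crosslinking transglutaminase, at 258, 162 and 122 TPM against 131, 116 and 60.0 TPM (log2 fold change 0.81 ± 0.14, adjusted p = 0.0195). For both, replicate 3 was low in each group, so the groups overlapped while each pair rose. Tgm2 was the 1 gene of the 28 that belongs to any of the 29 gene lists used here, that of alternative activation.

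Receptors, cytokines and signaling proteins made up another share. Il1rl1 encodes ST2, the receptor for IL-33. It was at 8.26, 8.65 and 14.8 TPM with KEAP1 KO CM and 1.81, 1.87 and 7.27 TPM with WT CM (log2 fold change 1.47 ± 0.24, adjusted p = 0.0173), with replicate 3 highest in both groups. Il36g, a cytokine of the IL-1 family, was at 40.4, 17.5 and 12.1 TPM against 9.10, 5.48 and 2.70 TPM (log2 fold change 1.79 ± 0.34, adjusted p = 0.0372). Rgs16, a GTPase-activating protein that shortens G protein signals, was at 6.22, 7.40 and 4.56 TPM against 1.93, 2.11 and 1.07 TPM (log2 fold change 1.4 ± 0.18, adjusted p = 0.00165). The groups did not overlap for any of these genes. Clec4d, a C-type lectin receptor for mycobacterial glycolipid, was abundant in all 6 libraries, at 526, 307 and 458 TPM against 206, 160.2 and 212 TPM (log2 fold change 1.12 ± 0.20, adjusted p = 0.0295). Sh2b2, an adaptor of receptor tyrosine kinases, was at 10.7, 8.11 and 10.2 TPM against 4.37, 4.21 and 4.69 TPM (log2 fold change 0.97 ± 0.16, adjusted p = 0.0195). Ms4a4a, a tetraspanning membrane protein of macrophages with close paralogs, was at 11.3, 4.92 and 27.7 TPM against 2.71, 1.53 and 9.42 TPM (log2 fold change 1.48 ± 0.25, adjusted p = 0.0195), and its groups overlapped.

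The other higher genes had log2 fold changes of 1.4 for Ramp3, a partner of the calcitonin-like receptor, 1.31 for Dmkn, 1.08 for the cytohesin-binding Cytip, 0.98 for Phlda1 and 0.78 for Tnfrsf23, a decoy receptor for TRAIL. They were 0.73 for the RNA-binding Samd4, 0.73 for Stac2, 0.65 for the AMP deaminase Ampd3, 0.48 for Emp1 and 0.36 for the focal adhesion protein Tes, with adjusted p from 0.0223 to 0.0489. The processed pseudogene Smt3h2-ps4 also passed, at 3.02, 4.09 and 4.10 TPM with KEAP1 KO CM and listed at 0 in all 3 WT CM libraries, but it shares sequence with its parent gene and its values are uncertain. The group means of 13 of the 28 genes were under 5 TPM with WT CM.

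The 2 genes that fell were Gbp2b and Qpct. Gbp2b (chr3:142300602-142324940), an interferon-induced guanylate-binding protein, was at 111, 91.8 and 153 TPM with KEAP1 KO CM and 253, 177 and 213 TPM with WT CM (log2 fold change -0.88 ± 0.15, adjusted p = 0.0195). It is closely related to its neighbor Gbp2, and its estimated transcripts may be shared with it. Qpct, the glutaminyl cyclase that forms pyroglutamate at the ends of peptides, was at 84.6, 103 and 134 TPM against 144, 142 and 196 TPM (log2 fold change -0.60 ± 0.10, adjusted p = 0.0223). Neither gene overlapped between the groups.

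The 300 bases upstream of the canonical start of each gene (GENCODE, GRCm39) were searched on both strands for 3 motifs, chosen after the gene list was known. The AP-1 site TGACTCA, bound by JUN and FOS dimers, was present for 5 of the 28 genes (17.9%) and for 545 of the 13579 tested genes with a sequence (4.01%). The antioxidant response element core TGACNNNGC was present for 5 of the 28 (17.9%) against 12.2% of tested genes, and the gamma-activated sequence TTCNNNGAA, an element of interferon gamma-induced promoters, for 6 (21.4%) against 8.11%. An AP-1 site can overlap the antioxidant response element core, as it did upstream of Srpx2. The stretches around the AP-1 site are shown because it is the motif with the largest gap between those shares, in capitals with the strand of the gene, 5′ to 3′:
Mmp12, chr9:7347305-7347361, plus strand: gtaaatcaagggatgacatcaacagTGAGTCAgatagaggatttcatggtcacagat
Heph, chrX:95498748-95498804, plus strand: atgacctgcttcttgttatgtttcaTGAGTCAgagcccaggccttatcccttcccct
Srpx2, chrX:132809090-132809146, plus strand: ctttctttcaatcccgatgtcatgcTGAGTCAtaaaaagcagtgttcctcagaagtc
Dmkn, chr7:30463067-30463123, plus strand: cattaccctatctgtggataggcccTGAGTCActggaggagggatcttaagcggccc
Emp1, chr6:135339759-135339815, plus strand: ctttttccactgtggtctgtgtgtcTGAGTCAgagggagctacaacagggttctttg
The site ended 38 bases before the start for Mmp12, 53 for Srpx2, 78 for Dmkn, 139 for Emp1 and 186 for Heph. None of these stretches overlaps an annotated exon. Those of Mmp12 and Emp1 lie within the span of a longer transcript of the same gene and that of Heph within the span of Hsf3. A match of letters is a description and was not tested as a binding site.

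The same medium comparison with vehicle in place of CDDO-Me gave 0 genes past the threshold, with 723 at an unadjusted p under 0.05, 456 higher (3.34%) and 267 lower (1.95%). All 28 genes had a smaller difference with vehicle than with CDDO-Me, which the choice of genes past the threshold favors. Several of them were near the floor with vehicle, where little difference can appear. Gbp2b was listed at 0 in every KEAP1 KO CM/vehicle and WT CM/vehicle library. The test of the difference itself, the interaction of medium and CDDO-Me, gave 0 genes past the threshold in limma. At an unadjusted p under 0.05 there were 397 (1.83% of all genes higher and 1.08% lower), among them 26 of the 28. The 28 were chosen by the CDDO-Me difference, which is part of the interaction, so their large share was favored in advance. The lowest adjusted p of the interaction was 0.302. Without the 2 NRF2 KO CM libraries, 78 genes passed with vehicle (38 higher, 0.28%, and 40 lower, 0.295%) and 8 passed the interaction (0.059%), all 8 higher with CDDO-Me. Mmp12, Mt3 and Sh2b2 were among those 8. With vehicle, Mt3 was near the floor, at 0.186, 0.264 and 0.104 TPM with KEAP1 KO CM and 0.217, 0 and 0.444 TPM with WT CM. Mmp12 was at 1857, 2202 and 2423 TPM with KEAP1 KO CM/vehicle and 2507, 2689.5 and 3302 TPM with WT CM/vehicle, a log2 fold change of -0.46, opposite in sign to that with CDDO-Me (interaction adjusted p = 0.000267 without the 2 libraries). Il1rl1 was nearly as different with vehicle as with CDDO-Me, at 36.9, 25.3 and 62.6 TPM against 12, 8.66 and 31.2 TPM (log2 fold change 1.25).

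**Figure D2:**
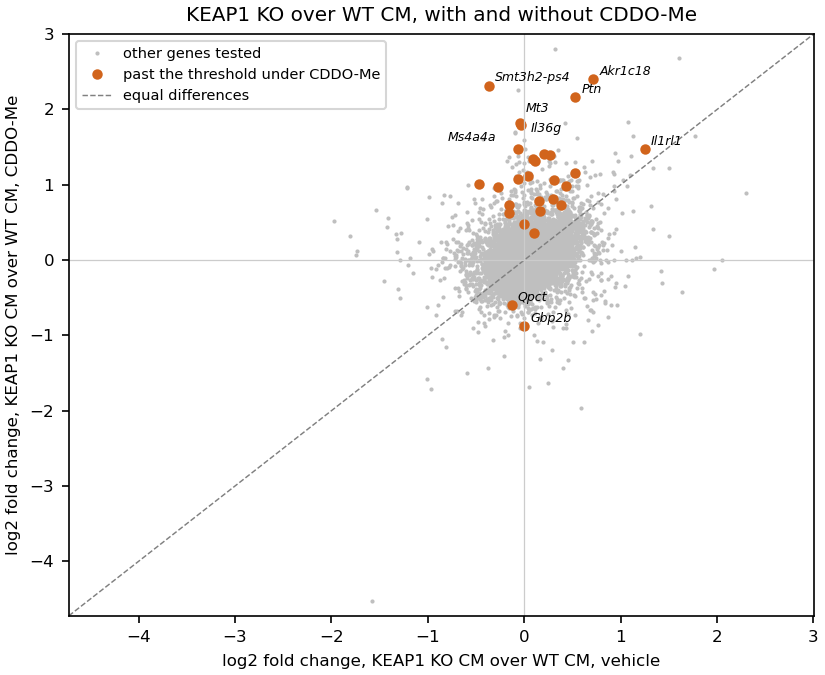
Log2 fold change of KEAP1 KO CM over WT CM with vehicle (x axis) and with CDDO-Me (y axis) for the 13661 genes tested, 1 point per gene, with the 28 genes past the threshold under CDDO-Me in orange and the dashed line at equal differences. The 26 higher genes lie above the dashed line, and Il1rl1 is the closest to it among the labelled points.

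Genes that NRF2 transcribes were mostly higher with KEAP1 KO CM in the presence of CDDO-Me. Of 30 NRF2 targets, 27 had a log2 fold change above 0, against 49.8% of all genes, with a median of 0.29 against 0 over all genes, and 24 (80%) were higher in all 3 pairs against 19.6% of all genes. In 19 of the 30 the groups did not overlap, with KEAP1 KO CM higher, against 6.28% of all genes. None of the 30 passed the adjusted threshold in limma, 12 were higher and 1 lower at an unadjusted p under 0.05 (4.76% and 2.28% of all genes), and 9 passed as higher without the 2 NRF2 KO CM libraries, against 1.99% of all genes. Pair medians were 0.35, 0.27 and 0.15 for replicates 1, 2 and 3. With vehicle the median was -0.047 and 13 of 30 were above 0, against 6456 of the 13661 genes tested. The interaction median of these targets was 0.35, with 29 of 30 above 0. At an unadjusted p under 0.05 in limma, the interaction was higher for 5 and lower for 0, against 1.83% and 1.08% of all genes. None of the 30 passed the interaction under either fit.

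Among genes for cystine uptake and glutathione, Slc7a11, the cystine-glutamate exchanger, was at 46.2, 19.2 and 26.3 TPM with KEAP1 KO CM and 11.9, 9.45 and 11.6 TPM with WT CM. Its log2 fold change of 1.31 ± 0.26 (SE, n = 3) just missed the threshold, with a limma adjusted p of 0.05, and of 0.00558 without the 2 libraries. For quinone detoxification, Nqo1, the NAD(P)H quinone reductase often used as a readout of NRF2, was at 85.8, 83.5 and 90.8 TPM against 41.6, 42.7 and 60.5 TPM (log2 fold change 0.84 ± 0.23, adjusted p = 0.149, and 0.0173 without the 2 libraries). The lowest KEAP1 KO CM library was above the highest WT CM library for both genes. In the thioredoxin system, Srxn1, which repairs oxidized peroxiredoxins, was at 543, 313 and 301 TPM against 247, 217 and 199.9 TPM (log2 fold change 0.73 ± 0.19, adjusted p = 0.137, and 0.0359 without the 2 libraries), and Txnrd1, thioredoxin reductase, at 514, 331 and 302 TPM against 265, 256 and 239 TPM (log2 fold change 0.54 ± 0.15, adjusted p = 0.186, and 0.0412 without the 2 libraries). For Srxn1 and Txnrd1, KEAP1 KO CM replicate 1 was far above replicates 2 and 3, and the groups did not overlap. Abcc4, an efflux pump, was at 26.8, 28.9 and 28.3 TPM against 18.5, 18.5 and 21.6 TPM (log2 fold change 0.49 ± 0.13, adjusted p = 0.144, and 0.0123 without the 2 libraries). Hmox1, heme oxygenase 1, was at 852, 756 and 587 TPM against 564, 533 and 537 TPM (log2 fold change 0.39 ± 0.18, adjusted p = 0.678, and 0.142 without the 2 libraries) and passed under neither fit. Nfe2l2, which encodes NRF2 itself, was at 217, 127 and 105 TPM against 119.6, 111 and 90.6 TPM (log2 fold change 0.40 ± 0.26, adjusted p = 0.939, and 0.127 without the 2 libraries), and its groups overlapped. Of 9 NRF2 regulators, Maff, a small MAF partner of NRF2, was at 24.9, 16.2 and 9.21 TPM against 9.14, 9.69 and 6.51 TPM (log2 fold change 0.82 ± 0.25, adjusted p = 0.239, and 0.0355 without the 2 libraries).

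These levels can be set beside the other CDDO-Me groups. With CDDO-Me, Nqo1 was at 104, 79 and 219 TPM in control media and 156, 133 and 189.8 TPM in NRF2 KO CM, and from 2.16 to 5.16 TPM in all vehicle libraries. By group mean WT CM/CDDO-Me was the lowest of the 4 CDDO-Me groups for 24 of the 30 NRF2 targets (80%), against 37.9% of all genes tested, and KEAP1 KO CM/CDDO-Me lay above WT CM and below both media and NRF2 KO CM for 23 of 30 (76.7% against 31.5%). Both orders need KEAP1 KO CM above WT CM, already reported above for most of these targets, so the gap to all genes is partly set in advance. Of the 26 genes past the threshold as higher, 20 (76.9%) had WT CM lowest and 12 (46.2%) had the second order. These orders were counted after the values had been seen and carry no test. Nqo1, Srxn1 and Txnrd1 had the second order, while Slc7a11 had means of 30.6 TPM in KEAP1 KO CM and 29.7 TPM in NRF2 KO CM.

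**Figure D3:**
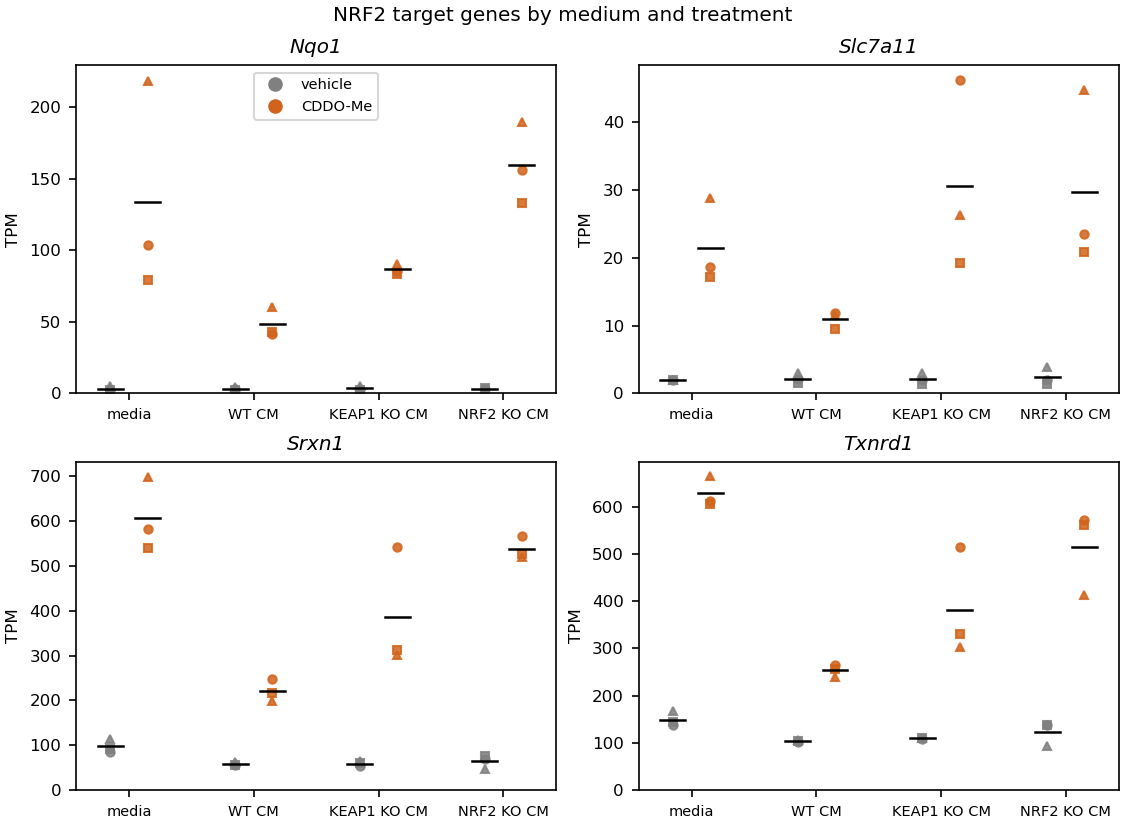
TPM (linear axis from 0) of Nqo1, Slc7a11, Srxn1 and Txnrd1 in all 24 libraries by medium, with vehicle in gray and CDDO-Me in orange, circles, squares and triangles for replicates 1, 2 and 3, and a bar at each group mean. With CDDO-Me, each gene is lowest in WT CM, and the 3 KEAP1 KO CM libraries lie above the 3 WT CM libraries.

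The antioxidant response element core was present upstream of 5 of the 30 NRF2 targets (16.7%) against 12.2% of tested genes. The stretches of Gclm, a glutathione synthesis subunit, Gsta3, a glutathione transferase, and Sqstm1, the autophagy receptor p62, are shown as examples of these letter matches. Those of Prdx1 and Txnrd1 overlap annotated exons and are not shown. The core is in capitals on either strand:
Gclm, chr3:122039047-122039105, plus strand: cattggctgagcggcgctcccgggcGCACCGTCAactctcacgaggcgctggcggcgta
Gsta3, chr1:21310663-21310721, plus strand: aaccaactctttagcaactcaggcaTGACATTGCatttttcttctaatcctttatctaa
Sqstm1, chr11:50102977-50103035, minus strand: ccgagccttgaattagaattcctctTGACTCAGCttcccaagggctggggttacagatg
In Gclm the core reads on the opposite strand, and in Sqstm1 its first bases are also an AP-1 site. The stretch of Gclm overlaps the span of an unnamed annotated gene, and that of Gsta3 the span of Gm28836. That of Sqstm1 overlaps the spans of Mgat4b and of Sqstm1 itself. These matches too were not tested as binding sites. Nqo1, Slc7a11 and Srxn1 had no match in the window, which says only that these letters are not in those 300 bases.

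Genes of sterol synthesis and uptake, which SREBP2 transcribes when membrane cholesterol is low, were also higher for the most part. Of 23 tested, 22 had a log2 fold change above 0, against 49.8% of all genes, with a median of 0.30, and 19 (82.6%) were higher in all 3 pairs, against 19.6%. At an unadjusted p under 0.05, 12 were higher and 1 lower, against 4.76% and 2.28% of all genes. None passed the adjusted threshold in limma, and 9 passed as higher without the 2 NRF2 KO CM libraries, against 1.99%. Sqle, squalene epoxidase, was at 13.6, 15.4 and 9.24 TPM with KEAP1 KO CM and 6.92, 8.34 and 7.54 TPM with WT CM (log2 fold change 0.64 ± 0.14, adjusted p = 0.0553, and 0.0119 without the 2 libraries). Among the controlling genes, Srebf2 had a log2 fold change of 0.34 (limma adjusted p = 0.315, and 0.0338 without the 2 libraries) and Insig1, a feedback inhibitor, of 0.44 (adjusted p = 0.2 and 0.0211). The vehicle comparison gave a similar median, 0.27, with 23 of 23 above 0, against 6456 of the 13661 genes tested. There 1 member passed as higher without the 2 libraries, against 0.28% of all genes. The interaction median was 0.0053 with 12 of 23 above 0. Sqle was at 72, 77.1 and 73.9 TPM with KEAP1 KO CM/vehicle and 57.9, 55.9 and 67.5 TPM with WT CM/vehicle.

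Inflammatory genes gave a mixed picture with wide spread. Of 16 classical activation genes, 10 were above 0 with a median of 0.28, against 49.8% of all genes above 0. By pair the median was 0.52, -0.026 and 0.058 for replicates 1, 2 and 3, so it was high in pair 1 only. In all 3 pairs, 6 of the 16 were higher and 5 lower, against 19.6% and 20.4% of all genes. At an unadjusted p under 0.05, 4 were higher, against 4.76% of all genes, and none passed in limma. Il1b, the cytokine IL-1 beta, had the largest positive log2 fold change among the genes tested but did not pass with all 24 libraries (log2 fold change 2.81 ± 0.60, adjusted p = 0.0553, and 0.00981 without the 2 libraries). It was at 129.9, 13.8 and 32.5 TPM with KEAP1 KO CM and 12.5, 3.31 and 2.31 TPM with WT CM, with replicate 1 highest in both groups and the groups not overlapping. Il6 was at 18.2, 6.17 and 2.70 TPM against 4.83, 2.62 and 0.821 TPM (log2 fold change 1.25 ± 0.40, adjusted p = 0.286, and 0.0843 without the 2 libraries), with overlap. Acod1, which makes itaconate, was at 331, 59 and 60.5 TPM against 41.8, 29.2 and 32.2 TPM (log2 fold change 1.6 ± 0.41, adjusted p = 0.121, and 0.05 without the 2 libraries), and replicate 1 carried most of the difference. Of 24 chemokines, 12 were above 0 with a median of 0.048. At an unadjusted p under 0.05 in limma, 8 were higher and 0 lower, against 4.76% and 2.28% of all genes. The neutrophil attractant Cxcl1 was at 33.9, 11.6 and 7.64 TPM against 11, 4.35 and 3.01 TPM (log2 fold change 1.29 ± 0.33, adjusted p = 0.121, and 0.0442 without the 2 libraries). Cxcl10, an interferon-induced chemokine for T cells, was at 1425, 465 and 490.1 TPM against 361, 329 and 358 TPM (log2 fold change 0.96 ± 0.30, adjusted p = 0.279, and 0.106 without the 2 libraries), and here too replicate 1 of KEAP1 KO CM stood far above the rest. KEAP1 KO CM replicate 1 was the highest of the 6 libraries for Il1b, Il6, Acod1, Cxcl1, Cxcl10 and for Slc7a11, Srxn1 and Txnrd1. Without that library the NRF2 target median was 0.20.

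Summed markers of some other cell types were also higher with KEAP1 KO CM, for 2 of these lists at levels near the floor. Of 12 neutrophil markers, 7 were tested and all 7 were above 0 (median 0.25), against 49.8% of all genes. At an unadjusted p under 0.05 (4.76% of all genes higher), 1 of these markers was higher, and none passed the threshold in limma. Their summed level was 163 to 215 TPM with KEAP1 KO CM and 129.7 to 139 TPM with WT CM, so it did not overlap. Mmp8, a neutrophil collagenase, was at 32.8, 22.4 and 67.8 TPM against 20.2, 8.67 and 21.5 TPM (log2 fold change 1.18 ± 0.31, adjusted p = 0.143, and 0.00981 without the 2 libraries), and S100a8, a calcium-binding alarmin, at 56.3, 50.2 and 63.9 TPM against 25.7, 38.1 and 36.7 TPM. Among the defining neutrophil markers, Retnlg was listed at 0 in all 6 libraries, and Ly6g, Mpo and Elane were under 1 TPM in each. The summed level of 9 mast cell and basophil markers was 1.96 to 4.94 TPM against 0.723 to 0.754 TPM, with Ms4a2, Tpsb2 and Cma1 listed at 0 in all 6 libraries. Of these 9, 8 were under 1 TPM in each KEAP1 KO CM library and 9 in each WT CM library. Kit was at 3.51, 0.390 and 1.25 TPM against 0.228, 0.293 and 0.372 TPM. The sum of 8 epithelial markers was 1.97 to 2.18 TPM against 0.355 to 1.05 TPM, with 7 or 8 of the 8 under 1 TPM in each library. Not all of them were higher, as Epcam was listed at 0 in the KEAP1 KO CM libraries and at 0.0217, 0.272 and 0.0455 TPM with WT CM. The part of these cell types in the inflammatory gene values was not tested.

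Interferon gamma response genes had a list median near 0, and the transcripts of some members were abundant in both groups. Irf1, a transcription factor that interferon gamma induces, was at 917, 858 and 959 TPM with KEAP1 KO CM and 889.5, 915 and 986 TPM with WT CM (log2 fold change -0.043, 95% interval -0.32 to 0.24). In control media with CDDO-Me it was at 59.7, 50.1 and 76.5 TPM and in NRF2 KO CM with CDDO-Me at 69.6, 66.2 and 86.7 TPM, so the high level was shared by the 6 libraries compared and not found in the other CDDO-Me libraries. Ido1, which degrades tryptophan, was low in both, at 2.86, 1.90 and 0.946 TPM against 0.850, 1.07 and 0.697 TPM (log2 fold change 0.59 ± 0.18, adjusted p = 0.233, and 0.0889 without the 2 libraries). Cd274, the checkpoint ligand PD-L1, was at 342, 313 and 392 TPM against 356, 321 and 386 TPM. The ranges of Irf1 and Cd274 overlapped between the groups. Among all genes, 49.8% were above 0, and 4.76% were higher and 2.28% lower at an unadjusted p under 0.05. Of 28 interferon gamma response genes, 15 were above 0 with a median of 0.021. None passed in limma under either fit. With all 24 libraries, 2 were higher and 0 lower at an unadjusted p under 0.05. The median with vehicle was -0.18, with 2 of 28 above 0, against 6456 of the 13661 genes tested. Of 29 type I interferon response genes, 17 were above 0 (median 0.021). Without the 2 libraries 1 of them passed as lower, against 1.4% of all genes. This was Mx1, an antiviral GTPase (36.5, 39.8 and 48.1 TPM against 47.6, 46.5 and 75.7 TPM, log2 fold change -0.43, adjusted p = 0.0391 in that limma fit). Of 22 MHC class I presentation genes, 10 were above 0 (median -0.0032). Of 12 MHC class II presentation genes, 1 was above 0 (median -0.18 with CDDO-Me and -0.29 with vehicle), and none passed under CDDO-Me in limma, with 0 lower at an unadjusted p under 0.05. Their transactivator Ciita was at 121, 156 and 188 TPM against 190.0, 185 and 214 TPM (log2 fold change -0.37 ± 0.19, adjusted p = 0.806, and 0.231 without the 2 libraries), and its ranges overlapped.

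Alternative activation genes were near 0 as a list, with 10 of 24 above 0, against 49.8% of all genes, and a median of -0.0073. The mannose receptor Mrc1 was at 56, 73.5 and 52.2 TPM against 59.9, 76.2 and 48.3 TPM, and Arg1, arginase 1, was under 1 TPM in all 6 libraries, at 0.124, 0.0290 and 0.0423 TPM against 0.239, 0.0823 and 0.0554 TPM. With vehicle, Arg1 was at 947, 936 and 1121 TPM with KEAP1 KO CM and 681, 765 and 544 TPM with WT CM. Pparg, a nuclear receptor of lipid metabolism and alternative activation, was at 14, 19.3 and 17.4 TPM against 20.0, 23.9 and 24.4 TPM (log2 fold change -0.43 ± 0.12, adjusted p = 0.149, and 0.0366 without the 2 libraries).

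Of 5 tested dendritic cell markers, 3 that mark conventional type 1 dendritic cells were at lower levels with KEAP1 KO CM. Clec9a, a receptor for dead cell actin, was at 43.8, 53.9 and 83.4 TPM with KEAP1 KO CM and 95.4, 95.5 and 123 TPM with WT CM (log2 fold change -0.84 ± 0.18, adjusted p = 0.0531, and 0.0155 without the 2 libraries). Xcr1, the receptor for XCL1, was at 2.27, 1.91 and 2.04 TPM against 4.69, 3.97 and 2.92 TPM (log2 fold change -0.67 ± 0.13, adjusted p = 0.05, and 0.0166 without the 2 libraries). Batf3, a transcription factor of this lineage, was at 15.1, 18.7 and 21 TPM against 23.3, 25.9 and 30.1 TPM (log2 fold change -0.53 ± 0.29, adjusted p = 0.837, and 0.0378 without the 2 libraries). All 3 passed as lower without the 2 libraries, against 1.4% of all genes. In each the groups did not overlap, against 4.85% of all genes that were lower without overlap. The other tested markers, Zbtb46 and Cd209a, had log2 fold changes of 0.076 and 0.017. The other 5 of the 10 listed markers did not reach the level needed for testing, and 6 or 7 of the 10 were under 1 TPM in each of these libraries. Flt3 was at most 0.0357 TPM, Itgae at most 0.284 TPM and Zbtb46 at most 0.759 TPM in them. Clec9a was between 0 and 0.497 TPM in all 18 other libraries of the series. In bulk RNA, fewer cells of a type and less RNA per cell cannot be told apart.

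Markers of fibroblasts and stroma were mostly at higher levels with KEAP1 KO CM, though not in every pair. Of 25 markers, 23 were above 0 with a median of 0.35, against 49.8% of all genes above 0. At an unadjusted p under 0.05, 3 were higher, against 4.76% of all genes, and none passed in limma. Pair medians were 0.69, 0.38 and -0.078 for replicates 1, 2 and 3. The summed level was 959 to 3441 TPM with KEAP1 KO CM and 1011 to 2575 TPM with WT CM, and 1 marker of the 25 was under 1 TPM in each library. With vehicle the median was 0.42, and 25 of 25 were above 0, against 6456 of the 13661 genes tested. Several of the genes above are known products of stromal cells, among them Srpx2, Ptn and the matrix inhibitor Timp1 (486, 498 and 222 TPM against 196, 221 and 113 TPM, log2 fold change 1.13 ± 0.24, adjusted p = 0.0512, and 0.00881 without the 2 libraries). With the mean level of these markers as a covariate 8 genes passed in place of 28, all 8 higher, and 7 of them were among the 28. Those 7 were Akr1c18, F5, Heph, Ms4a4a, Ptn, Rgs16 and Srpx2. The part of stromal RNA in the differences of these 7 and of the other genes was not tested.

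**Figure D4:**
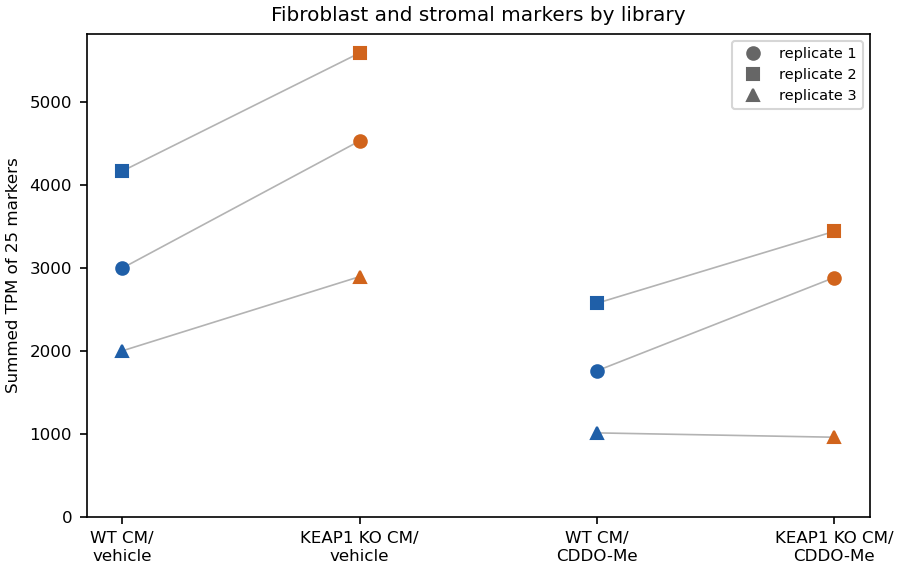
Summed TPM of 25 fibroblast and stromal markers (y axis, from 0) in each library of the WT CM and KEAP1 KO CM groups, with gray lines joining libraries of the same replicate number. The sum is higher with KEAP1 KO CM in every pair except replicate 3 under CDDO-Me, where the values are 959 and 1011 TPM.

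None of the genes in the remaining lists passed in limma with all 24 libraries. Of all genes, 49.8% were above 0, and 4.76% were higher and 2.28% lower at an unadjusted p under 0.05. Of 28 glycolysis and hypoxia genes, 21 were above 0 (median 0.14) and none passed in limma, with 4 higher and 1 lower at an unadjusted p under 0.05. The platelet-type phosphofructokinase Pfkp was at 181, 192 and 195 TPM against 238, 248 and 257 TPM (log2 fold change -0.40 ± 0.10, adjusted p = 0.101, and 0.0152 without the 2 libraries). Of 15 heat shock genes, 11 were above 0 (median 0.14), and the chaperone Hspb1 was at 13.9, 21.4 and 7.78 TPM against 4.97, 11.7 and 3.29 TPM (log2 fold change 1.06 ± 0.23, adjusted p = 0.0551, and 0.00981 without the 2 libraries). Of 20 integrated stress response genes, 7 were above 0 (median -0.13), and 2 were higher and 4 lower at an unadjusted p under 0.05. Of 20 itaconate and TCA cycle genes, 4 were above 0 (median -0.082). Of 24 angiogenic factors, 12 were above 0 (median 0.016), and of 30 cell cycle genes 19 (median 0.096, against 0.38 with vehicle). Of 17 macrophage markers, 8 were above 0 (median -0.0013), none passed in limma, and 1 was higher at an unadjusted p under 0.05. The metallothioneins Mt1 and Mt2 were at 349, 335 and 193 and 387, 364 and 195 TPM with KEAP1 KO CM against 187, 196 and 147 and 209, 171 and 111 TPM with WT CM, with adjusted p of 0.554 and 0.071 in limma, and 0.0138 and 0.00643 without the 2 libraries.

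**Figure D5:**
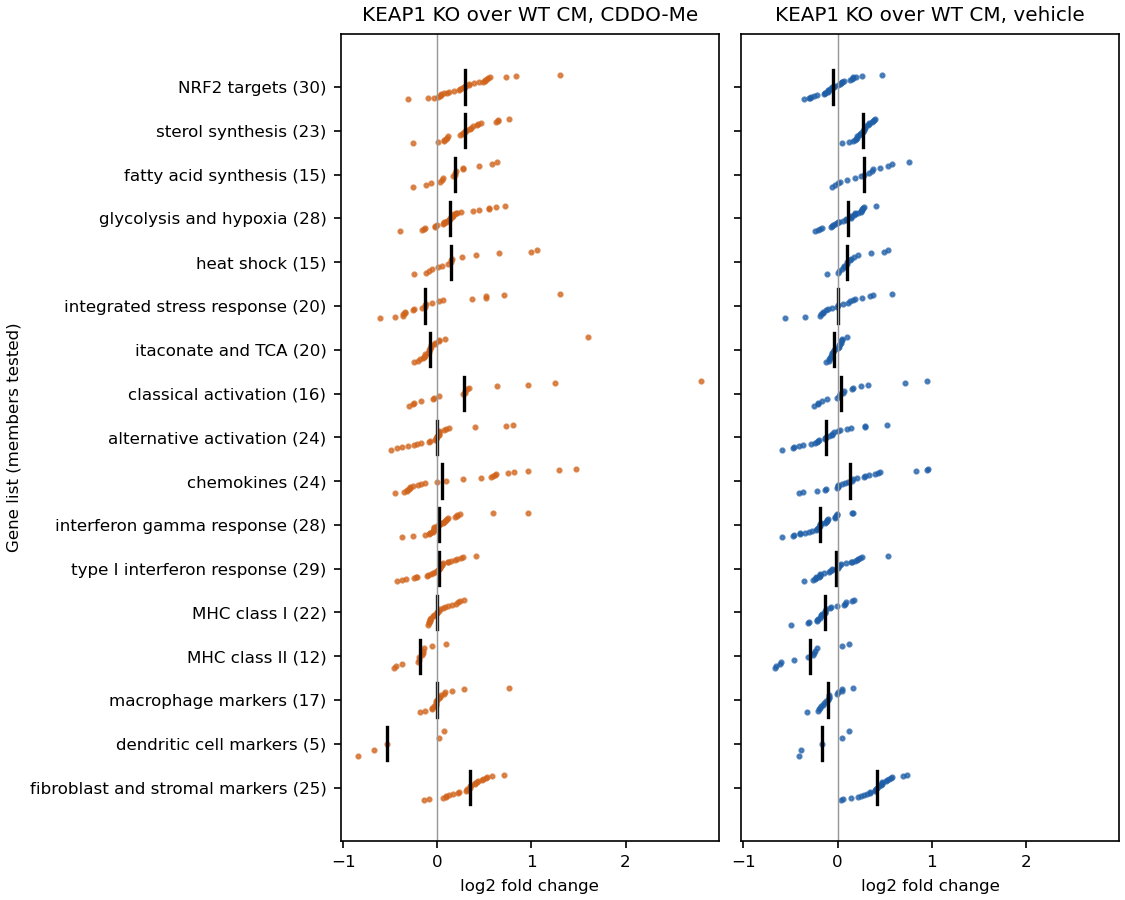
Log2 fold change of KEAP1 KO CM over WT CM for each member (points) and the median (black bar) of 17 gene lists, with CDDO-Me on the left and vehicle on the right; the number of members tested is in parentheses. NRF2 targets have a median of 0.29 with CDDO-Me and -0.047 with vehicle, whereas sterol synthesis genes have 0.30 and 0.27.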

How the data were processed

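RNA was measured in 24 libraries of C57BL/6 BMDMs, 3 in each of 8 groups, with groups and replicate numbers taken from the labels. The authors quantified poly-A libraries with kallisto on GRCm39 transcripts and deposited TPM for 35770 gene names. TPM sum to the same total in every library, so the depth and counting error of each single library are unknown. A row without a gene name (0.0199% to 0.0635% of TPM) was left out. The statistics the study ran on these groups were not used.

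TPM were divided by factors from unweighted trimmed means of M values (30% of M and 5% of A values trimmed at each end), and log2 was taken after adding a pseudocount of 1. Genes needed more than 1 TPM in 3 or more libraries. limma 3.58.1 (R 4.3.3) fitted 8 groups and the replicate number, with 14 residual degrees of freedom, a trend on the mean level and Benjamini-Hochberg adjustment, and an adjusted p under 0.05 passed. An exact permutation test of 3 against 3 libraries cannot go below a two-sided p of 0.1. Deviations from the group means correlated at 0.19, 0.43 and 0.53 between same-numbered libraries under CDDO-Me and at -0.47 to 0.15 between others, so the numbers were taken to pair the libraries. Deviations sum to 0 over the 3 libraries of a group, so part of this contrast is built in. For replicate 1 the gap was small, as KEAP1 KO CM replicate 1 correlated at 0.19 with WT CM replicate 1 and at 0.15 with WT CM replicate 2. No 2 libraries held identical values. Fold changes of low genes are understated by the pseudocount.

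The genes compared, the lists and the tests were chosen with earlier results of these data known. Named genes were up to 12 per direction past the threshold with a mean of at least 1 TPM, up to 5 with the smallest p of each list, and genes the study turns on; the text prints part of them, and the other genes past the threshold were named after their values were seen. In the lower direction, where fewer than 5 passed, the next smallest unadjusted p were also listed. Coordinates are those of GENCODE on GRCm39, matched by gene symbol for 99.4% of tested genes. The fit was tested on simulated data. Alternatives were no replicate block, other scalings, pseudocounts and filters, no trend, array weights, fits of 6 or 12 libraries, a stromal covariate, and leaving out libraries or pairs. Python 3.11.15 and matplotlib 3.10.9 drew the figures. Some results under the rule for named genes are not reported here.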

Additional observations from a re-analysis of the deposited data

Results flagged for a closer look

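The median log2 difference of the 30 NRF2 targets between KEAP1 KO CM and WT CM was 0.29 with CDDO-Me. It was above 0 in each of the 3 pairs with CDDO-Me (0.35, 0.27 and 0.15) and below 0 in each of the 3 pairs with vehicle (-0.036, -0.086 and -0.018). The difference between these medians was not tested, and none of the 30 genes passed the interaction of medium and CDDO-Me in limma under either fit.

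The median of the 28 interferon gamma response genes was 0.021 with CDDO-Me, above 0 in each pair (0.015, 0.023 and 0.013), and below 0 in each vehicle pair (-0.17, -0.16 and -0.21). This difference was not tested either, and the CDDO-Me median changed sign when KEAP1 KO CM replicate 1 was left out (-0.013) and when both replicate 1 libraries were (-0.0096).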

How the results depend on the processing

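All 28 genes kept their direction under every alternative in which they were tested, but the number past the threshold did not hold. It was 7 (6 higher, 1 lower) with no replicate block, and 8 (8 higher, 0 lower) with the stromal covariate. It was 50 (42, 8) with no trend, 62 (44, 18) with a pseudocount of 5, 104 (76, 28) for 6 libraries with the replicate block, 150 (114, 36) for 12 libraries, 455 (310, 145) with array weights and 460 (270, 190) without the NRF2 KO CM replicate 3 libraries. In 6 libraries with no replicate block limma gave 0 in either direction, with 800 at an unadjusted p under 0.05. Lower genes numbered 4 with no scaling, 1 with a pseudocount of 0.1 and 9 with no filter. Leaving out single libraries or pairs gave 2 to 88 genes, 2 to 79 higher and 0 to 9 lower. Without pairs 1, 2 and 3 the counts were 3, 2 and 43. Akr1c18 and Rgs16 passed in 22 of the 24 alternatives. The interaction gave 1 gene with a pseudocount of 5, 3 for 12 libraries, 8 without the NRF2 KO CM libraries, 38 with array weights and 0 to 1 when libraries were left out. The vehicle comparison gave 3 genes with no filter, 2 with a mean of at least 5 TPM, 2 with no trend, 659 with array weights, 5 for 12 libraries, 50 for 6 libraries with the block, 78 without the NRF2 KO CM libraries and 0 to 1 when libraries were left out. The cause of these shifts was not tested.

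The interferon gamma median was 0.013 with RLE scaling, 0.035 with no scaling, 0.013 with a mean of at least 5 TPM, 0.027 for 6 libraries with or without the block, 0.016 without the NRF2 KO CM libraries, 0.0021 with the stromal covariate and -0.013 to 0.050 when libraries were left out. The medians of NRF2 targets and sterol synthesis genes moved by less than the spread between pairs. Genes near 0 changed sign: Keap1 (-0.0052 with RLE, -0.0048 with array weights, -0.0026 without the NRF2 KO CM libraries), Cd274 (0.014 with the stromal covariate) and Nos2 (-0.20 with the stromal covariate). When libraries were left out, the values ranged from -0.049 to 0.066 for Keap1, -0.25 to 0.16 for Mrc1, -0.17 to 0.081 for Irf1, -0.16 to 0.059 for Cd274, -0.16 to 0.0061 for Arg1 and -0.36 to 0.96 for Nos2.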
